A study of Sus scrofa with 24 samples.

Results

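The genes of mitochondrial and peroxisomal fatty acid oxidation were followed in the liver of steroid-treated and untreated pigs. The members were chosen by name, from a list of 39 gene symbols, with earlier results of these data known. Their rows were read in the deposited count and log2 TPM tables of all 24 libraries. A row was found for 22 of the 39 symbols among the 13463 genes of the tables, and all 22 passed the filter on low counts that left 8279 genes for testing. By symbol, chromosome 14 had 1 gene with a row, and each other chromosome from 10 to 18 had 0. All genes below are therefore mainly those of chromosomes 1 to 9 and X. The 17 symbols not analysed here are ACSL1, ACSL5, SLC25A20, ACADVL, ACADL, ACADS, ACADSB, ACAD11, ECHS1, ECI1, BDH1, ACOX2, EHHADH, ACAA1, AMACR, PHYH and HACL1.

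In the liver, long-chain fatty acids are activated to acyl-CoA esters and carried into mitochondria as carnitine esters. There, acyl-CoA dehydrogenases pass electrons to the electron transfer flavoprotein, and repeated hydration, dehydrogenation and thiolysis release acetyl-CoA, which feeds the citric acid cycle or ketone body synthesis. Peroxisomes shorten very long and branched chains first and hand the products on as carnitine esters, and the nuclear receptor PPARα with its coactivator PGC-1α drives many genes of both compartments.

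The study asked which liver transcripts change in pigs given anabolic steroid esters, with 1 library per pig. Sustanon, a mixture of testosterone esters (250 mg/ml), was injected intramuscularly at 4 mg/kg in 8 pigs, labelled as 3 sows (gilts), 3 castrated boars (barrows) and 2 uncastrated boars (boars). Myodin, a nandrolone ester (25 mg/ml), was injected at 5 mg/kg in 8 pigs, labelled as 3 sows, 2 castrated boars and 3 uncastrated boars. The 8 untreated pigs were labelled as 3 sows, 3 castrated boars and 2 uncastrated boars. Nandrolone is testosterone without a methyl group of its ring system, and the doses of the products differed. All were growing commercial hybrids of 3 breeds from the same trader. The treated animals were kept apart from the untreated ones, and each tested group had its own pens. Treatment and housing therefore cannot be told apart, also between Sustanon and Myodin. Sows and castrated boars, by their labels, are grouped below as animals without testes.

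Between 9267780 and 14017276 reads were counted per library. In 3 untreated libraries the Y-linked gene EIF1AY went against the label: the library labelled castrated boar 15 had 1 count, and those labelled sow 16 and sow 18 had 476 and 434. Calls that rest on the untreated group are therefore also given without these 3. Myodin uncastrated boars 23 and 24 stood apart from the other Myodin pigs in many members, and results that they move are given with and without them. Of 6 hepatocyte markers, 5 were in the tables, and their summed level was 119459 to 182241 TPM in untreated, 143807 to 214237 in Sustanon and 91692 to 187738 in Myodin pigs. The 3 red blood cell markers summed to 2593 to 8266, 1444 to 7896 and 490.0 to 7968 TPM in the same order. Other cells had little: 3 of 6 leukocyte and Kupffer cell markers summed to 196 to 271, 196 to 238 and 202 to 320.2 TPM, 2 of 4 adipocyte markers to at most 20.5 TPM, 1 stromal marker to at most 35.5 TPM and 1 skeletal muscle marker to at most 1.89 TPM in any pig. The 2 of 4 bile duct markers found summed to 13.6 to 20.7 TPM in untreated, 8.93 to 22.8 in Sustanon and 7.5 to 13.5 in Myodin pigs, so that every Myodin pig lay below every untreated one. Their part in the results was not tested. None of the 16 marker genes tested was called between Sustanon and untreated pigs by edgeR, the smallest adjusted p being 0.273, nor between Myodin and untreated pigs, where edgeR called no gene. In bulk liver, fewer cells of a type and less RNA per cell cannot be told apart.

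Length-scaled levels ranked the members as follows. Acetyl-CoA acyltransferase 2, ACAA2, which carries out the last, thiolytic step of the mitochondrial spiral, was the most abundant member in untreated pigs, with 989 TPM on average, and the 16th of 22 in Sustanon pigs, with 146 TPM. Carnitine O-octanoyltransferase, CROT, the peroxisomal enzyme that makes carnitine esters of medium-chain acyl groups, took the opposite course, from the 16th place with 137 TPM to the 4th with 473 TPM. In Sustanon pigs the first place went to ACADM, the medium-chain acyl-CoA dehydrogenase, with 606 TPM against 436 TPM in untreated pigs. PPARGC1A, which encodes PGC-1α, was the least abundant in each group, with 9.10, 6.24 and 7.93 TPM in untreated, Myodin and Sustanon pigs. The sum over the 22 members was 6309 ± 545 TPM (SD, n = 8) in untreated, 5869 ± 942 TPM in Myodin and 5802 ± 396 TPM in Sustanon pigs, and the means differed by less than the SD of the untreated pigs.

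**Figure D1:**
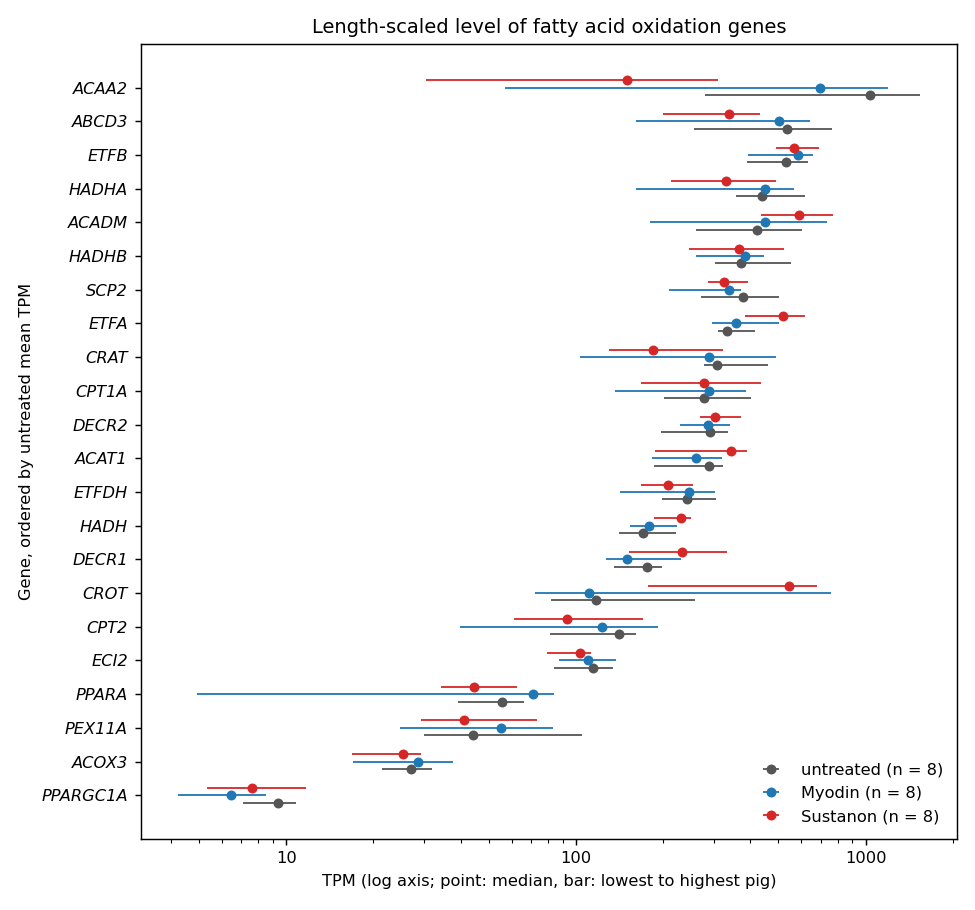
TPM (log axis) of the 22 members, ordered by their mean in untreated pigs, with the median (point) and the lowest to highest pig (bar) of each treatment, 8 pigs each. ACAA2 has the highest level in untreated pigs and ranks 16 of 22 after Sustanon, while CROT moves from rank 16 to rank 4.

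Sustanon against untreated pigs was the first comparison. A gene was called when its edgeR quasi-likelihood p, adjusted by Benjamini-Hochberg over all 8279 genes, was under 0.05. Of the 22 members, 5 were called (22.7%), against 5.07% of all genes tested. Because the members were chosen with earlier results of these data known, these shares are not an independent test of the pathway. The 4 that rose were CROT, ETFA, HADH and DECR1, against a background of 3.39% of genes called higher, and the 1 that fell was ACAA2, against 1.68% called lower. Without adjustment the p was under 0.05 for 9 members, against 19.6% of all genes. With a log2 fold change of at least 1 as a further condition, ACAA2 and CROT were called, against 1.56% of all genes. The median log2 fold change was -0.17 over the members and -0.01 over all genes, and the median size without the sign was 0.21 and 0.15. By role, 1 of 4 carnitine shuttle genes, 1 of 4 dehydrogenase and electron transfer genes, and 3 of 6 genes of the later mitochondrial steps were called. CROT, though peroxisomal, was counted with the carnitine shuttle. None of the 5 genes listed under peroxisomal oxidation, of the 2 regulators and of the single ketone body gene was called.

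These calls rest on the whole untreated group. Without the 3 untreated libraries whose EIF1AY went against the label, no gene at all was called by edgeR in this comparison, and the genes below 0.05 without adjustment numbered 1199 in place of 1625. The log2 fold changes moved little: ACAA2 stood at -2.65 (adjusted p = 0.116), CROT at 1.71 (adjusted p = 0.148), ETFA at 0.56 (adjusted p = 0.122), HADH at 0.35 (adjusted p = 0.162) and DECR1 at 0.58 (adjusted p = 0.155). In animals without testes, described below, ACAA2 and CROT were called with and without them.

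**Figure D2:**
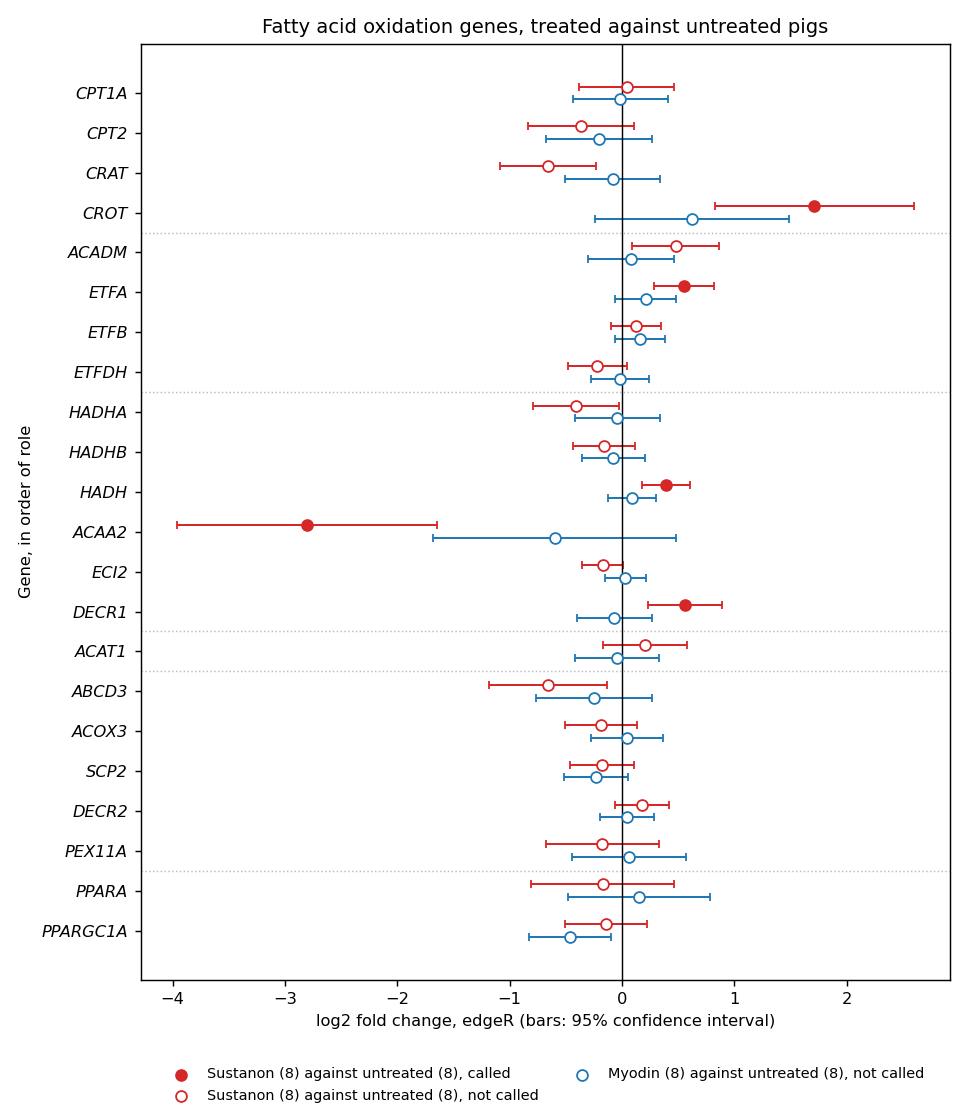
log2 fold change by edgeR with its 95% confidence interval for the 22 members in order of role, Sustanon (red) and Myodin (blue) against the same 8 untreated pigs; filled points were called. The 5 filled points are CROT, ETFA, HADH, ACAA2 and DECR1 after Sustanon, and no Myodin point is filled.

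ACAA2 (ENSSSCG00000004510, Sscrofa11.1 chr1:99284467-99310759) had the widest change. In reads scaled to library size with TMM factors (CPM), the untreated castrated boars had 840.2, 1474 and 1307, the last being the library labelled 15. The untreated pigs labelled as sows had 1057, 1000.3 and 730.1, the first and last being the libraries labelled 16 and 18. In both of these, as in 15, EIF1AY went against the label. The untreated boars had 211 and 465.7. Untreated animals with testes were thus the lowest of their group. Sustanon castrated boars had 185, 109 and 189.6 CPM. The Sustanon sows had 282, 36.5 and 164, and the Sustanon boars 27.7 and 24.2. Of the 8 Sustanon pigs, 7 lay below every untreated pig, and only sow 4 overlapped with untreated boar 25. The Sustanon mean was 127 ± 93.9 CPM (SD, n = 8) and the untreated mean 886 ± 418. The log2 fold change was -2.80 (SE 0.56, 95% interval -3.96 to -1.64, adjusted p = 0.0114 by edgeR), a level 6.96 times lower. Read counts of ACAA2 were still 254 to 2608 per Sustanon library, so counting noise was small beside the spread between pigs.

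CROT (ENSSSCG00000015391, chr9:93263606-93308150) was at 178 CPM in the lowest, a median of 273 and 517 in the highest untreated pig. The Sustanon pigs ranged from 351 over a median of 1133 to 1442 CPM. The 2 that fell within the untreated range were castrated boars 1 and 3, with 447 and 351 CPM, and the other 6 lay above every untreated pig. The log2 fold change was 1.71 (SE 0.43, 95% interval 0.83 to 2.60, adjusted p = 0.0208 by edgeR), or 3.28-fold.

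ETFA (ENSSSCG00000001862, chr7:56450508-56540275) encodes the alpha subunit of the electron transfer flavoprotein, which takes electrons from all mitochondrial acyl-CoA dehydrogenases. Its lowest, median and highest CPM were 181, 218 and 239 in untreated and 215, 315 and 391 in Sustanon pigs. Only Sustanon castrated boar 3, the lowest of its group, fell within the untreated range. The log2 fold change was 0.55 (SE 0.13, 95% interval 0.28 to 0.82, adjusted p = 0.0168 by edgeR). The beta subunit gene, ETFB, had 191, 251 and 294 CPM in untreated and 243, 259 and 322 in Sustanon pigs, a log2 fold change of 0.12 that was not called (adjusted p = 0.586), and ETFDH, which passes the electrons on to ubiquinone, stood at -0.22 (adjusted p = 0.366).

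HADH (ENSSSCG00000009150, chr8:113952561-114005510), the dehydrogenase for short and medium chain 3-hydroxyacyl-CoA, had a lowest, median and highest CPM of 317, 413 and 511 in untreated and 413, 559 and 609 in Sustanon pigs. Castrated boar 3 was again the only Sustanon pig within the untreated range. The log2 fold change was 0.39 (SE 0.10, 95% interval 0.18 to 0.60, adjusted p = 0.0283 by edgeR). DECR1 (ENSSSCG00000006126, chr4:46731359-46767427), the mitochondrial 2,4-dienoyl-CoA reductase needed for unsaturated chains, had 183, 225 and 310.2 CPM in untreated and 205, 337 and 458 in Sustanon pigs. Here castrated boars 1 and 3 and boar 20 overlapped with the untreated pigs, and 5 of 8 lay above all of them. Its log2 fold change was 0.56 (SE 0.16, 95% interval 0.23 to 0.90, adjusted p = 0.0396 by edgeR). Both calls depended on single libraries: HADH lost its call without any 1 of untreated castrated boar 13, sow 17, the library labelled sow 18, Sustanon boars 19 and 20, castrated boar 2 and sows 4 and 5, with an adjusted p of up to 0.0670. DECR1 lost its call in 13 of 24 such fits, with an adjusted p of up to 0.0997. The log2 fold changes stayed at 0.33 to 0.44 for HADH and 0.49 to 0.64 for DECR1 in these fits. ACAA2, CROT and ETFA kept their calls in all 24.

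**Figure D3:**
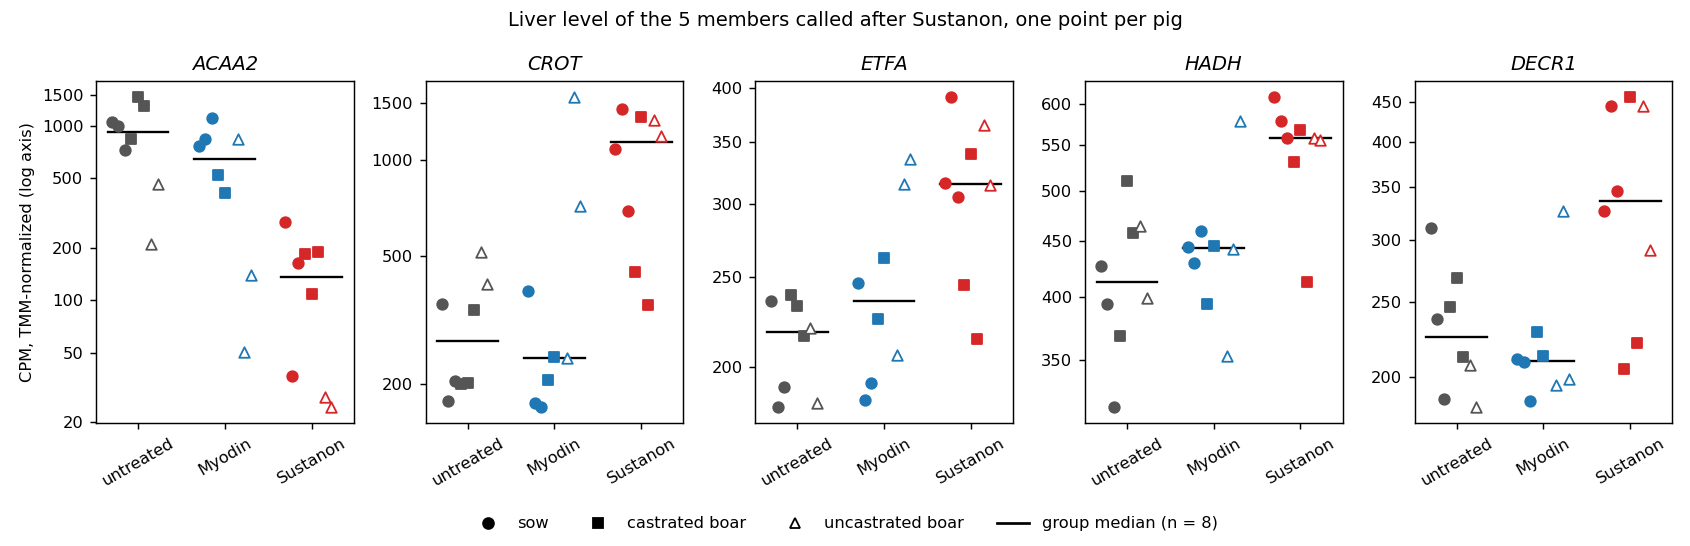
CPM (log axis) of ACAA2, CROT, ETFA, HADH and DECR1, one point per pig, by treatment; circles are sows, squares castrated boars, open triangles uncastrated boars, and the line is the median of 8 pigs. ACAA2 is low in 7 of 8 Sustanon pigs, and 2 of 3 Myodin boars lie with the Sustanon pigs for ACAA2, CROT and ETFA.

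The remaining members were not called after Sustanon. CPT1A, the malonyl-CoA-sensitive entry enzyme of the carnitine shuttle, had a lowest, median and highest CPM of 511, 784.5 and 952 in untreated and 491, 729 and 1230.3 in Sustanon pigs. Its log2 fold change was 0.04 (95% interval -0.38 to 0.47, adjusted p = 0.942 by edgeR), and its sign turned when the 3 libraries against their label were left out. CRAT, the carnitine acetyltransferase that buffers acetyl-CoA, had 474, 591 and 706 CPM in untreated and 242, 318 and 555 in Sustanon pigs, and 6 of the 8 Sustanon pigs lay below every untreated pig. Its log2 fold change was -0.66 (95% interval -1.08 to -0.23, adjusted p = 0.0633 by edgeR), and DESeq2 called it. By edgeR it was called without Sustanon castrated boar 1 or 3 or without Myodin boar 23, and when only Sustanon and untreated pigs were fitted. For CPT2, which frees acyl-CoA inside the mitochondrion, the value was -0.37 (adjusted p = 0.411). ACADM stood at 0.48 (adjusted p = 0.143).

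The genes of the trifunctional protein, which handles long chains and lie 1 after the other on chromosome 3, were HADHA at -0.41 (adjusted p = 0.220) and HADHB at -0.16 (adjusted p = 0.571). ECI2, a delta(3),delta(2)-enoyl-CoA isomerase, stood at -0.17 (adjusted p = 0.291). The ratio of ACAA2 to HADHB, both thiolases, had a median of 2.71 in TPM in untreated pigs (0.504 to 4.44) and of 0.459 in Sustanon pigs (0.0630 to 1.25). ACAT1, the acetyl-CoA acetyltransferase of ketone body metabolism, had a lowest, median and highest CPM of 157, 262 and 309 in untreated and 151, 299.6 and 373 in Sustanon pigs, a log2 fold change of 0.21 (adjusted p = 0.595 by edgeR).

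Of the 5 members listed under peroxisomal oxidation, which leaves out CROT, ABCD3, a transporter of fatty acids through the peroxisomal membrane, had the highest TPM in each treatment group. It had a lowest, median and highest CPM of 460.0, 1119.9 and 1398 in untreated and 414, 660.1 and 856 in Sustanon pigs. Of the untreated pigs, 5 lay above every Sustanon pig, and the log2 fold change was -0.66 (95% interval -1.18 to -0.14, adjusted p = 0.138 by edgeR). The other 4, the acyl-CoA oxidase ACOX3, the thiolase and sterol carrier SCP2, the reductase DECR2 and the peroxisome division factor PEX11A, had log2 fold changes between -0.19 and 0.18. For the regulators, PPARA had 86.3, 125 and 151 CPM in untreated and 78.4, 98.3 and 149.8 in Sustanon pigs (log2 fold change -0.17, 95% interval -0.81 to 0.46, adjusted p = 0.819). PPARGC1A had 25.8, 33.1 and 47.0 CPM in untreated and 19.8, 29.2 and 46.7 in Sustanon pigs (log2 fold change -0.14, 95% interval -0.50 to 0.22, adjusted p = 0.728).

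A wider list of the pathway (uptake and activation, mitochondrial, peroxisomal and PPAR-related genes) had 57 further genes tested. After Sustanon, 3 of the 57 (5.26%) were called, all higher, close to the 5.07% of all genes called. Without the 3 libraries against their label 0 of the 57 were called by edgeR, and 13 had an unadjusted p under 0.05. PLIN5, which coats lipid droplets and tethers them to mitochondria, rose by a log2 fold change of 0.80 (adjusted p = 0.0145 by edgeR). HSD17B4, the bifunctional enzyme of peroxisomal oxidation, rose by 0.64 (adjusted p = 0.0151). CYP4A24, a fatty acid omega-hydroxylase with a close relative in CYP4A25, so that reads may have been split between them, rose by 1.24 (adjusted p = 0.0344).

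Myodin against the same untreated pigs called none of the 22 members, and 0% of all genes tested. By edgeR, 7.21% of all genes (597) were below 0.05 without adjustment, and of the members only PPARGC1A was, with a log2 fold change of -0.46 (95% interval -0.83 to -0.10, adjusted p = 0.543) and 15.3, 24.5 and 34.5 CPM as the lowest, median and highest Myodin pig. DESeq2 and limma called 0 members as well. Here and below, a 0 printed without the calls over all genes is not set against a background. The intervals bound what could have been missed: -1.68 to 0.48 for ACAA2, -0.24 to 1.49 for CROT, -0.06 to 0.48 for ETFA, -0.13 to 0.30 for HADH and -0.40 to 0.26 for DECR1. Without the 3 untreated libraries against their label, 0 members and 0 of all genes were called by edgeR, 0 members and 357 genes had an unadjusted p under 0.05, and ACAA2 stood at -0.45 (95% interval -1.75 to 0.85). Without boars 23 and 24, a choice made after seeing the data, 0 members were called and the sign of 9 of the 22 fold changes turned, that of CROT among them. The CROT interval above includes these boars. Over all 8 pigs each, the ratio of Myodin to untreated CPM for CROT was 1.54 by means and 0.886 by medians.

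Within the Myodin group the pigs were far apart. ACAA2 had 768, 838 and 1104 CPM in the sows, 525 and 409 in the castrated boars, and 841, 50.1 and 139 in boars 22, 23 and 24. CROT was at 390.2, 174 and 169 CPM in the sows, 205 and 242 in the castrated boars, and 241, 1572 and 716 in the same boars. Boars 23 and 24 thus lay in the Sustanon range for ACAA2, as did boar 24 for CROT, boar 23 lay above every Sustanon pig for CROT, and boar 22 was in the untreated range for both genes. ABCD3 was likewise at 318 and 398 CPM in boars 23 and 24 against 919 in boar 22. PPARA was at 157 CPM in boar 22, 65.2 in boar 23 and 12.8 in boar 24, while the other 5 Myodin pigs had 123 to 214.

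**Figure D4:**
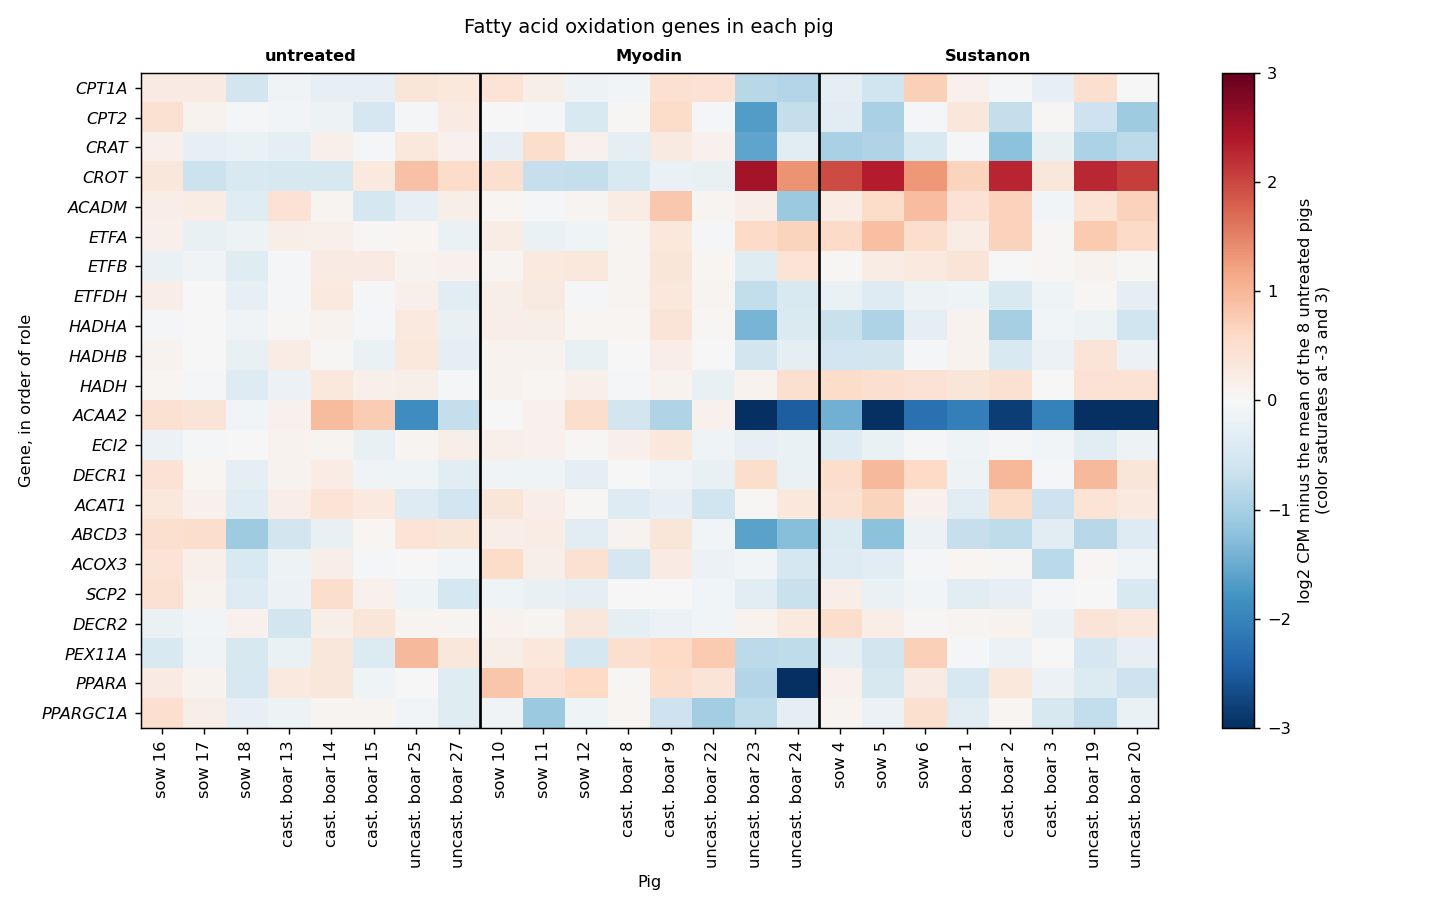
log2 CPM of the 22 members (rows, in order of role) in the 24 pigs (columns, by treatment and animal type), minus the mean of the 8 untreated pigs; red is higher and blue lower. The blue band of ACAA2 and the red band of CROT run through the Sustanon pigs and reappear in Myodin boars 23 and 24. In both boars CPT2 and ABCD3 are also blue, while CRAT is clearly lower only in boar 23. Untreated boar 25 is blue for ACAA2 too.

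Sustanon against Myodin, at 4 against 5 mg/kg and so at unequal doses, called 0 of 22 members and 0.664% of all genes by edgeR over all 8 pigs of each group, with 8 members at an unadjusted p under 0.05, against 18.1% of all genes. ACAA2 stood at a log2 difference of -2.20 (95% interval -3.33 to -1.07, adjusted p = 0.0527) and DECR1 at 0.63 (adjusted p = 0.0598), and DESeq2 called both. This count depended on single pigs, and the calls over all genes moved with it. Without boar 23 alone 5 members and 541 genes were called, without boar 24 alone 1 member and 77 genes, and without both 11 members and 727 genes, in place of 0 members and 55 genes. Without Sustanon castrated boar 1 or castrated boar 3 it was 2 members, and 250 or 231 genes.

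Testes are themselves a source of androgen, so the comparison was repeated within animals labelled as having none. EIF1AY was counted in castrated and uncastrated boars alike. For the libraries labelled sow 16 and sow 18 the lack of testes is therefore uncertain. Over 6 Sustanon and 6 untreated sows and castrated boars, 2 members were called by edgeR (9.09%), against 5.54% of all genes. ACAA2 ranged from 36.5 to 282 CPM in Sustanon and from 730.1 to 1474 in untreated pigs, with no overlap, as in 3.31% of all genes, and a log2 fold change of -2.73 (SE 0.50, adjusted p = 0.00245). CROT ranged from 351 to 1442 CPM and from 178 to 355, and 5 of the 6 Sustanon pigs lay above all untreated ones, with a log2 fold change of 1.86 (SE 0.38, adjusted p = 0.00457). Both were called under all 8 other settings and without any single library. Without the 3 libraries against their label, ACAA2 stood at -2.78 (adjusted p = 0.0247) and CROT at 2.21 (adjusted p = 0.0350). An unadjusted p under 0.05 was reached by 8 members, against 19.3% of all genes. Not called were ETFA, which stood at 0.48 (adjusted p = 0.050), HADH at 0.40 (adjusted p = 0.0667) and DECR1 at 0.45 (adjusted p = 0.173). Without Sustanon castrated boar 3, Myodin boar 22 or Myodin boar 24, whose spread enters the same fit, ETFA and HADH were called too, which made 4, while the calls over all genes went from 459 to 498, 550 and 517.

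Of the 57 further pathway genes, 5 (8.77%) were called in these animals, all higher, against 5.54% of all genes. The peroxisomal import receptor PEX5 rose by 0.86 on the log2 scale (adjusted p = 0.000266 by edgeR), PLIN5 by 0.85 (adjusted p = 0.0137) and HSD17B4 by 0.72 (adjusted p = 0.0158). The acyl-CoA synthetase and transporter SLC27A4 rose by 0.58 (adjusted p = 0.0264), and ESRRA, the nuclear receptor ERRα that acts with PGC-1α, by 0.43 (adjusted p = 0.0286). Without the 3 libraries against their label only PEX5 of these was called, at 0.80 (adjusted p = 0.0208 by edgeR), against 1.49% of all genes, and the other 4 had adjusted p of 0.102 to 0.252.

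Against the 5 Myodin pigs without testes, at the unequal doses above, the 6 Sustanon pigs had 2 members called by edgeR, against 2.69% of all genes, and 11 members at an unadjusted p under 0.05, against 19.6%. ACAA2 was lower by a log2 difference of -2.18 (SE 0.51, adjusted p = 0.0247) and CROT higher by 1.92 (SE 0.41, adjusted p = 0.0142). The Myodin pigs had 409 to 1104 CPM of ACAA2, above every Sustanon pig, and 169 to 390.2 CPM of CROT, below 5 of 6. ETFDH and ECI2 also had no overlap, as in 3.04% of all genes, but were not called (adjusted p = 0.106 and 0.0670). The ACAA2 call was lost without Myodin sow 10, 11 or 12 or Sustanon castrated boar 2, sow 5 or sow 6 (adjusted p of up to 0.0690), and the CROT call without Myodin sow 11 (adjusted p = 0.0566). With each library left out in turn, the log2 differences stayed at -2.41 to -1.97 for ACAA2 and at 1.73 to 2.18 for CROT. Without Sustanon castrated boar 1 or 3, or without Myodin boar 23, 5 members were called, while the calls over all genes went from 223 to 453, 450 and 370. Myodin against untreated pigs without testes called 0 members and 0.0966% of all genes by edgeR, with ACAA2 at -0.55 (95% interval -1.58 to 0.48) and CROT at -0.06 (95% interval -0.86 to 0.74). Only ECI2 had an unadjusted p under 0.05 there, against 10.3% of all genes, at a log2 fold change of 0.20. DESeq2 and limma called 0 members too, again with no background given. Without the 3 libraries against their label edgeR called 0 members and 0 of all genes, no member had an unadjusted p under 0.05, and CROT changed sign to 0.29 (95% interval -0.71 to 1.29).

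Untreated boars were compared with untreated animals without testes, 2 against 6. None of the members was called by edgeR, against 1.63% of all genes, and 4 had an unadjusted p under 0.05, against 14.7%. ACAA2 was at 211 and 465.7 CPM in the boars, below each of the 6 others, which had 730.1 to 1474, with a log2 difference of -1.66 (95% interval -3.20 to -0.12, adjusted p = 0.295). PEX11A stood at 0.88, ACAT1 at -0.67 and SCP2 at -0.46, with adjusted p of 0.225, 0.292 and 0.321. CROT was at 517 and 409 CPM, above each of the 6 others, with a log2 difference of 0.91 (95% interval -0.12 to 1.94, adjusted p = 0.406). The share of all genes in which the 2 boars lay apart from the 6 others was not counted. Of the 57 further pathway genes, 2 were called (3.51%), PEX5, higher by 1.11 (adjusted p = 0.00148), and LPIN1, a phosphatidate phosphatase and coactivator of PPARα, at -2.52 (adjusted p = 0.0393). DESeq2 and limma called 0 members, again with no background given. Without the 3 libraries against their label, edgeR called 0 members and 0.356% of all genes. ACAA2 then stood at -1.71 (95% interval -3.48 to 0.06), PEX5 was called at 1.05 (adjusted p = 0.0328), and LPIN1 was not, at -2.61 (adjusted p = 0.106).

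In boars, 2 Sustanon against 2 untreated pigs called 0 members and 0% of all genes by edgeR, with 10 members at an unadjusted p under 0.05, against 10.7% of all genes. ACAA2 went from 211 and 465.7 CPM to 27.7 and 24.2, a log2 fold change of -3.70 (95% interval -5.60 to -1.80, adjusted p = 0.190), and it was the member called by DESeq2, among 45 genes, as did edgeR without Myodin boar 22 or boar 23, among 5 and 20 genes. CROT went from 517 and 409 to 1334 and 1187 CPM (log2 fold change 1.44, 95% interval 0.10 to 2.79, adjusted p = 0.437). By DESeq2 and limma, the 3 Myodin boars against the untreated boars gave 0 members, again with no background given. By edgeR this comparison also called 0 members and 0% of all genes, with 4 members at an unadjusted p under 0.05, against 8.99% of all genes. There ABCD3 stood at -1.21 (adjusted p = 0.340). Without boar 22 this comparison called 2 members, ABCD3 and PEX11A, and 152 of all genes. Without boars 23 and 24 it called 0 members and 0 genes, and 10 of the 22 fold changes turned their sign, PEX11A and CROT among them. Without boar 24 alone 5 turned, and without boar 23 alone or boar 22 alone 1 each. Without boar 23 or boar 24 alone 0 members were again called. Over all fits with 1 library left out, at most 152 of all genes were called.

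**Figure D5:**
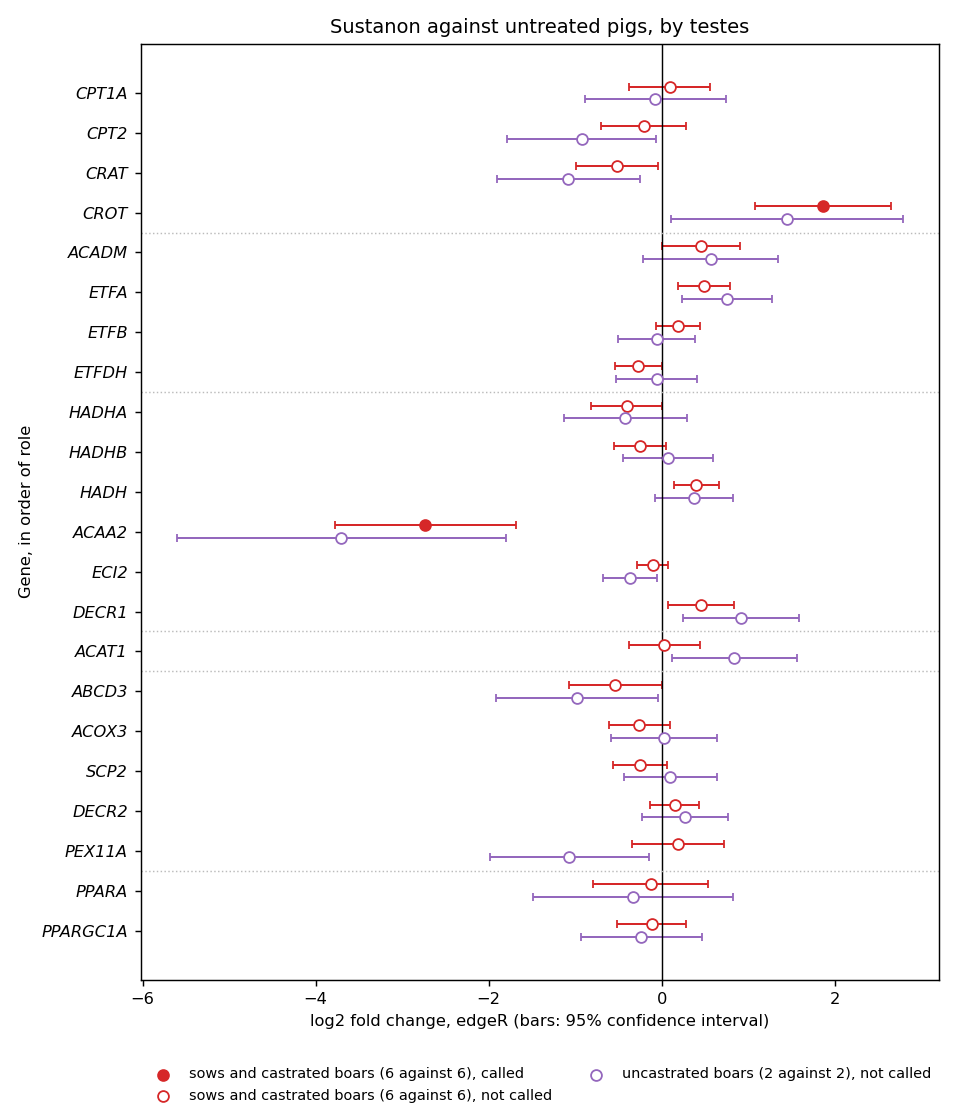
log2 fold change of Sustanon against untreated pigs by edgeR with its 95% confidence interval, in sows and castrated boars (red, 6 against 6) and in uncastrated boars (purple, 2 against 2), from 1 fit over 6 groups; filled points were called. ACAA2 is at -2.73 and -3.70 and CROT at 1.86 and 1.44, and PEX11A is at 0.19 and -1.07.

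The difference between these effects was tested by an interaction term. For Sustanon it called 0 members and 0.0362% of all genes by edgeR, with ACAA2 at -0.97 (95% interval -2.96 to 1.01) and CROT at -0.42 (95% interval -1.94 to 1.11). For neither gene was a difference between animals with and without testes detectable with 2 boars per group. PEX11A was the only member with an unadjusted p under 0.05 (-1.25, adjusted p = 0.601), against 6.96% of all genes. For Myodin the interaction called 0 members and 0.109% of all genes, and ECI2 at -0.53, ABCD3 at -1.36, PEX11A at -1.19 and CPT1A at -0.89 had an unadjusted p under 0.05, against 11.9% of all genes (adjusted p = 0.199, 0.256, 0.324 and 0.413). DESeq2 and limma called 0 members in both, again with no background given. Without Myodin boar 22 the second count was 3, ABCD3, CPT1A and PEX11A, and the calls over all genes went from 9 to 202. Without boars 23 and 24 it was 0 members and 2 genes, and 5 of the 22 interaction values turned their sign, CROT among them.

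Treated sows and treated castrated boars were compared last, over both products. By edgeR 0 members and 0.302% of all genes were called. By DESeq2 and limma 0 members were called, again with no background given. ACAT1 at 0.50 (adjusted p = 0.228) and DECR2 at 0.33 (adjusted p = 0.249) had an unadjusted p under 0.05, against 15.5% of all genes. ACAA2 stood at 0.47 (95% interval -0.62 to 1.56) and CROT at 0.35 (95% interval -0.51 to 1.21). Without Sustanon castrated boar 2, ACAT1 was called, and the calls over all genes went from 25 to 229. In both comparisons of treated with untreated boars and in both interactions, leaving out the 3 libraries against their label, which enter these fits, also left 0 members called by edgeR. Of all genes, 0 and 0 were called there in the boars and 2 and 3 in the interactions, so these counts of members are at the background.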

How the data were processed

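Liver RNA of 24 pigs had been sequenced from stranded poly-A libraries, aligned with STAR 2.5 to Sscrofa11.1, per the submitters' processing notes; the counting tool is not given in the sources used here. The authors deposited read counts per gene, without normalization, and log2 values of TPM + 1 (pseudocount 1). TPM was obtained by undoing the log2. All columns matched a sample title, but the header of Sustanon sow 6 carried the suffix of the Sustanon castrated boars. It was mapped by pig number and title, and its EIF1AY count was 0. Among the rows, 3779 have no symbol, of which 359 took one from the reference table. Coordinates are from RefSeq Sscrofa11.1.

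The deposited counts went into edgeR 4.0.16 (R 4.3.3). Low counts were removed by filterByExpr on treatment, libraries were scaled by TMM, and the quasi-likelihood test was two-sided, in 1 fit over 3 treatments, 1 over 6 groups (treatment by testes) and 1 over 9 groups (treatment by animal type). SE is the absolute log2 fold change divided by the square root of F, and intervals (95%) use it with the t distribution of the fit. Called means an adjusted p under 0.05. log2 CPM used a prior count of 2. The sources do not say that litters were kept apart, so p-values measure only the spread between these pigs.

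The members and lists were chosen with earlier results of these data known. Named are members called in any comparison, the most abundant member of each role, PPARA and PPARGC1A, and called genes of the wider list; other members named had an unadjusted p under 0.05 or complete a role. Alternatives were DESeq2 1.42.0, RLE, no filter, a log2 fold change of at least 1, limma 3.58.1 on the deposited log2 values, animal type as covariate, the compared groups alone, and leaving out libraries. The tests were tried on simulated counts, the outcome is not given, and no result here rests on it. No sequences were used here.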

Additional observations from a re-analysis of the deposited data

Results flagged for a closer look

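Within each treatment group of 8 pigs, the highest and lowest pig of every member was compared with its nearest neighbour by Dixon's criterion (critical value 0.526), over 66 pairs of member and group. Chance marks about 1 pair in 20, and 8 of 66 were marked here. Values are log2 CPM.

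Of the 8, 6 were in Myodin boars 23 and 24. Boar 23 was the lowest of its group for CRAT (7.564, nearest pig 8.848), ETFB (7.591, nearest 7.998) and HADHA (8.121, nearest 9.071), and the highest for DECR1 (8.353, nearest 7.837). Boar 24 was the lowest for ACADM (7.734, nearest 8.823) and PPARA (3.697, nearest 6.03), the latter from 133 reads. Among Sustanon pigs, castrated boar 3 was the lowest for HADH (8.69, nearest 9.053) and sow 6 the highest for PEX11A (6.946, nearest 6.226). Both boars had total counts within the range of the other libraries, 10562518 and 10293402 reads.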

How the results depend on the processing

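Over 298 pairs of a called fold change and another setting none changed sign, 259 kept the call and 39 lost it. These pairs include the main fit with the fold threshold added, which is no refit. There no sign could change, and ETFA, HADH and DECR1 lost their call by the rule itself. Counts of called members that moved by over 1.5 times were, for Sustanon against untreated (5), 2 with a log2 fold change of at least 1 and 0 without the 3 libraries against their label; the other 8 settings gave 4 to 7, with CRAT and ABCD3 added without boars 23 and 24, where 677 of all genes were called (420). For Sustanon against Myodin (0) they were 2 by DESeq2, 1 by limma, 3 with animal type as covariate and 11 without boars 23 and 24, with 276, 51, 390 and 727 of all genes called (55). For Sustanon against untreated without testes (2) they were 4 by DESeq2, 4 by limma and 4 without boars 23 and 24, with 631, 357 and 602 of all genes (459). For Sustanon against Myodin without testes (2) they were 4 by DESeq2 and 6 without these boars, with 479 and 475 of all genes (223), and for Sustanon against untreated boars (0) 1 by DESeq2 and 1 without these boars, with 45 and 24 of all genes (0). The boars' removal was chosen after seeing the data. Leaving out each library in turn gave 3 to 6, 0 to 5, 2 to 4, 0 to 5 and 0 to 1 in that order, 0 to 2 for Myodin against untreated boars, 0 to 3 for the Myodin interaction, 0 to 1 for treated sows against castrated boars, and 0 throughout in the other 4 comparisons. Of all genes, these fits called 198 to 613, 0 to 541, 288 to 550, 62 to 453 and 0 to 20 in the first 5. In the next 3 they called 0 to 152, 2 to 202 and 7 to 229. In the other 4 it was 0 for Myodin against untreated and 3 to 16 for the same without testes. It was 7 to 162 for untreated boars against those without testes and 0 to 5 for the Sustanon interaction. A group left with 1 pig was assumed to vary like the others. All genes called after Sustanon were 420, and 129 with the fold threshold, 637 by DESeq2, 316 by limma and 198 to 613 with 1 library left out. DECR1 also lost its call without a filter (adjusted p = 0.0563), over the compared groups alone (0.0502) and without the library labelled castrated boar 15. No paired analysis was possible because no pig number is shared between groups. Depth limited none of the members, of which the lowest count was 133.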

Other observations

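The 5 members called after Sustanon were correlated with each other on log2 CPM within the 8 Sustanon and within the 8 untreated pigs, 20 relations in all, chosen after the values were seen. CROT and ETFA had a Pearson r of 0.955 (exact permutation p = 9.9e-05, adjusted p = 0.00198, n = 8) and a Spearman rho of 0.952 (exact permutation p = 0.00114, adjusted p = 0.0228), and r was 0.753 without the 2 pigs farthest from the median of CROT. For CROT and HADH r was 0.783 (exact permutation p = 0.0094, adjusted p = 0.0451, n = 8), rho was 0.714 (exact permutation p = 0.0576, adjusted p = 0.165), and r was 0.114 without the 2 farthest pigs, so that relation rests on them. For ETFA and DECR1 r was 0.920 (exact permutation p = 0.00181, adjusted p = 0.0181), rho was 0.833 (exact permutation p = 0.0154, adjusted p = 0.103), and r was 0.795 without the 2 farthest pigs. CROT and DECR1 had an r of 0.874 (exact permutation, adjusted p = 0.0418) that was 0.529 without the 2 farthest pigs, and ETFA and HADH an r of 0.800 (exact permutation, adjusted p = 0.0451) that was 0.009 without them. For these 2 pairs the adjusted p of rho was 0.103 and 0.109 (exact permutation). No pair passed the threshold among the 8 untreated pigs. There ETFA and DECR1 had an r of 0.671 (exact permutation, adjusted p = 0.191) that was 0.823 without the 2 farthest pigs. Whether any correlation differed between Sustanon and untreated pigs was not tested. Castrated boars 1 and 3 were the lowest Sustanon pigs for CROT, ETFA and DECR1 and 2 of the 3 highest for ACAA2.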
